A study of Mus musculus with 9 samples.

Results

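Methylation was examined at promoter regions of Cdkn1a and Cdkn1b (Cdkn1A and Cdkn1B in the files), which encode the cell cycle inhibitors p21 and p27. The members were the CpG sites of their first amplicons, Cdkn1a_1 and Cdkn1b_1, that had at least 30 reads in each of 9 bisulfite sequencing libraries. There were 28 such sites, 5 in Cdkn1a_1 and 23 in Cdkn1b_1, of 310 sites tested in 26 promoter regions. All 5 CpG sites listed for Cdkn1a_1 were kept. Of the 27 listed for Cdkn1b_1, 3 had no reads and the CpG at offset 58 had 9 to 28 reads per library, so these 4 were left out. A second amplicon of each gene, with 4 CpG sites listed for Cdkn1a_2 and 12 for Cdkn1b_2, had no reads in any library.

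The cells were primary ventricular cardiomyocytes from embryos of CD-1 mice, taken at embryonic day 13.5 and pooled by litter. After 48 h in culture they received 0.012 pmol of AllStars negative control siRNA, DNMT3a siRNA or DNMT3b siRNA, and were collected 72 h later and sorted magnetically for VCAM1, a cell surface protein used to enrich cardiomyocytes. The DNMT3a and the DNMT3b reagent were each a pool of 4 siRNAs, and each group had 3 libraries. The study asked which promoters differ in methylation when DNMT3a or DNMT3b is knocked down. The labels do not say whether the replicates were separate cultures, so p-values measure the spread between these libraries, which may be technical. Neither Dnmt3a nor Dnmt3b was amplified and no RNA was measured, so the degree of knockdown and the markers of the sorted cells were not analysed here.

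p21 and p27 belong with p57, the product of Cdkn1c, to the Cip/Kip family, which binds cyclin and cyclin-dependent kinase complexes and restrains entry into S phase. In the heart these inhibitors are known for their part in the withdrawal of cardiomyocytes from the cell cycle. DNMT3a and DNMT3b place methyl groups on previously unmethylated CpG dinucleotides. In mammals, promoters dense in CpG (CpG islands) are mostly unmethylated, whereas scattered CpG sites are mostly methylated. Bisulfite converts unmethylated cytosine so that it is read as T, and the methylation level of a site is the percent of its reads that still carry C.

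The files number cytosines within an amplicon and give no chromosome position. Positions were found by matching the listed cytosines and their sequence contexts to 32851 RefSeq promoter windows of GRCm38.p6, the assembly behind mm10, and each amplicon matched a single gene, its own. Cdkn1a_1 lay on the plus strand at chr17:29090475-29090898, which is -504 to -81 bp from the first annotated Cdkn1a start at 29090979. All 55 of 55 cytosine contexts in the 170 bp that overlap the window matched. Cdkn1b_1 lay on the plus strand at chr6:134919793-134920195, -608 to -206 bp from the Cdkn1b start at 134920401, with 9 of 9 contexts matched over 45 bp. Positions outside these overlaps extend the listed offsets without gaps and were not checked against sequence. Both amplicons therefore lie before the first exon of their gene. A second Cdkn1a transcript starts at 29093769, which is 2790 bp downstream, and its promoter was not covered by Cdkn1a_1.

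The matched stretch of Cdkn1a_1, the 250 bases before the second Cdkn1a start and the 250 bases before the Cdkn1b start are printed to show how differently CpG sites are spaced. Capitals mark CpG dinucleotides, and all sequences are RefSeq, plus strand, 5′ to 3′.
Cdkn1a_1, chr17:29090729-29090898: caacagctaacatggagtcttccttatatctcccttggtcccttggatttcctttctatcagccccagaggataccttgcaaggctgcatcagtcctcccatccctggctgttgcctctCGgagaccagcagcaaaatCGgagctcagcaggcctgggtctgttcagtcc
Cdkn1a second start, chr17:29093519-29093768: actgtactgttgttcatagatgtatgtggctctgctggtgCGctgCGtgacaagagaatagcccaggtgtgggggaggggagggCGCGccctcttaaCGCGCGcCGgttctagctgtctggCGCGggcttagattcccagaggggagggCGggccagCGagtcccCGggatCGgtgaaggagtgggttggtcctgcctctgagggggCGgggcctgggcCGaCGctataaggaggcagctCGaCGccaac
Cdkn1b, chr6:134920151-134920400: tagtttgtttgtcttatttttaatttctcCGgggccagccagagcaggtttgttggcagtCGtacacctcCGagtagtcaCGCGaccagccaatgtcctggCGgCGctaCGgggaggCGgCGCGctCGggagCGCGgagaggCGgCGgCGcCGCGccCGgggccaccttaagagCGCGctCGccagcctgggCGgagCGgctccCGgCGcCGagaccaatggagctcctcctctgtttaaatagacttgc
The first sequence holds 2 CpG sites, the tested sites at offsets 374 and 393. Cdkn1b_1 overlaps only the first 45 bases of the Cdkn1b sequence, which hold 1 CpG, the tested site at offset 392.

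Within 250 bases upstream, the first Cdkn1a start has 2 CpG sites, the second Cdkn1a start 19 and the Cdkn1b start 28. The median over the 32851 windows was 6. As few as 2 CpG sites occur in 29.0% of windows, as many as 19 in 19.7% and as many as 28 in 7.61%. The amplicons differed in the same way: Cdkn1a_1 had 1.18 CpG sites per 100 bp (5 of 109 listed cytosines) and Cdkn1b_1 had 6.70 (27 of 141). Among the 26 regions with reads, Cdkn1a_1 was the fifth sparsest in CpG and Cdkn1b_1 the fourth densest.

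The sparse Cdkn1a_1 amplicon was heavily methylated and the dense Cdkn1b_1 amplicon was nearly unmethylated in every library. Here and below, the terms Cdkn1a promoter and Cdkn1b promoter refer to these amplicons only. The second Cdkn1a start, with 19 CpG sites in the 250 bases before it, was not covered by Cdkn1a_1. Cdkn1b_1 holds 1 of the 28 CpG sites in the 250 bases before its start. In Cdkn1a_1 the mean over the 5 sites was 62.4%, 58.8% and 59.7% in the 3 negative siRNA libraries. It was 60.9%, 60.8% and 57.7% in the DNMT3a siRNA libraries and 57.0%, 69.5% and 69.1% in the DNMT3b siRNA libraries. In Cdkn1b_1 the mean over the 23 sites was 0.289%, 0.280% and 0.291% in negative siRNA. It was 0.277%, 0.347% and 0.241% in DNMT3a siRNA and 0.266%, 0.323% and 0.322% in DNMT3b siRNA. The Cdkn1a amplicon exceeded the Cdkn1b amplicon by 61.5 ± 4.57 percentage points (SD, n = 9), higher in 9 of 9 libraries with a lowest difference of 56.8 points. By the exact two-sided sign-flip permutation test within libraries p was 0.00391, the smallest that 9 libraries can give, and 0.00439 after Benjamini-Hochberg adjustment over the 9 pairs of regions compared.

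**Figure D1:**
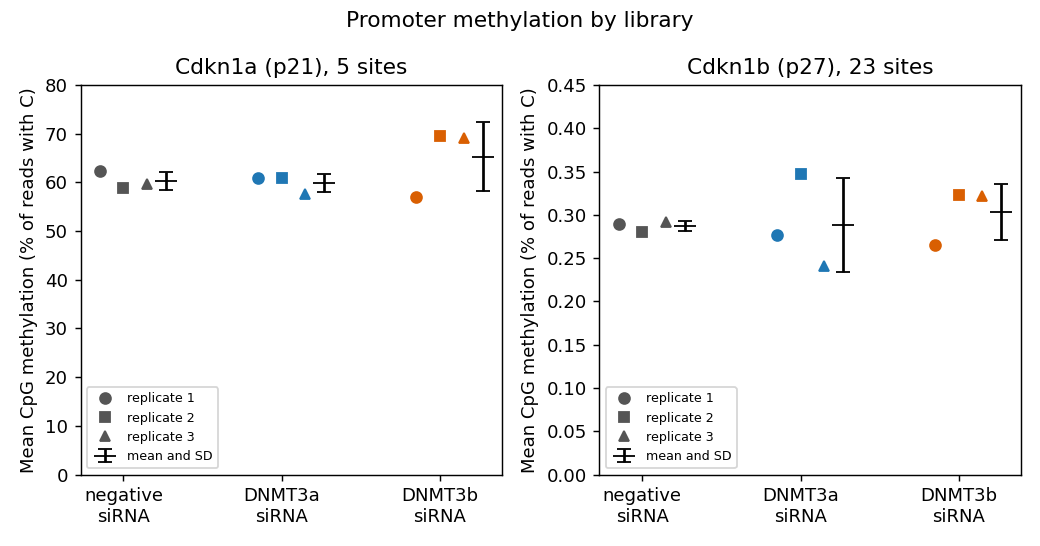
Mean CpG methylation (percent of reads with C) of Cdkn1a_1 (left, 0 to 80%) and Cdkn1b_1 (right, 0 to 0.45%) in each siRNA library, with the group mean and SD beside the points. DNMT3b siRNA replicates 2 and 3 stand at 69.5% and 69.1% in Cdkn1a_1, above the other 7 libraries, whereas all Cdkn1b_1 values lie below 0.4%.

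The Cdkn1a promoter was more methylated than each of the 3 regions nearest to it in CpG density. These were Tnnt2_1, Myh6_1 and Myh7b_2, from genes of the contractile apparatus, with 1.36, 0.962 and 0.915 CpG sites per 100 bp. Cdkn1a_1 exceeded Tnnt2_1 by 8.25 points (range 0.442 to 17.1 over libraries), Myh6_1 by 14.5 and Myh7b_2 by 21.3, each in 9 of 9 libraries (exact sign-flip adjusted p = 0.00439). Over all 26 regions Cdkn1a_1 ranked sixth from the highest in level.

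The Cdkn1b promoter had the third lowest level of the 26 regions. Its nearest regions in density were Camta2_1, Mef2d_1 and Nppb_1, with 7.93, 4.13 and 2.89 CpG sites per 100 bp. The difference from Camta2_1, a promoter of a transcription activator gene, was -0.00404 ± 0.117 points (SD, n = 9; range -0.187 to 0.133), with Cdkn1b_1 higher in 5 of 9 libraries (exact sign-flip p = 0.918). Cdkn1b_1 was lower than Mef2d_1 (mean difference -1.41 points) and Nppb_1 (-3.97 points) in 9 of 9 libraries (exact sign-flip adjusted p = 0.00439 each).

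Cdkn1c, the third Cip/Kip gene and an imprinted gene in the mouse, lay between them. Cdkn1c_1 was the densest region of the panel at 13.3 CpG sites per 100 bp and had a mean level of 20.8% over 9 libraries. The difference from Cdkn1c_1 was 41.0 points for Cdkn1a_1, higher in 9 of 9 libraries, and -20.5 points for Cdkn1b_1, lower in 9 of 9 (exact sign-flip adjusted p = 0.00439 each). By group, Cdkn1c_1 had 23.2% ± 2.95 with negative, 20.7% ± 2.56 with DNMT3a and 18.4% ± 1.06 with DNMT3b siRNA (SD, n = 3). The DNMT3b and negative libraries did not overlap there, as in 19.2% of the 26 regions, but the region did not pass the test (log2 odds ratio -0.47 ± 0.18 SE, edgeR adjusted p = 0.315).

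**Figure D2:**
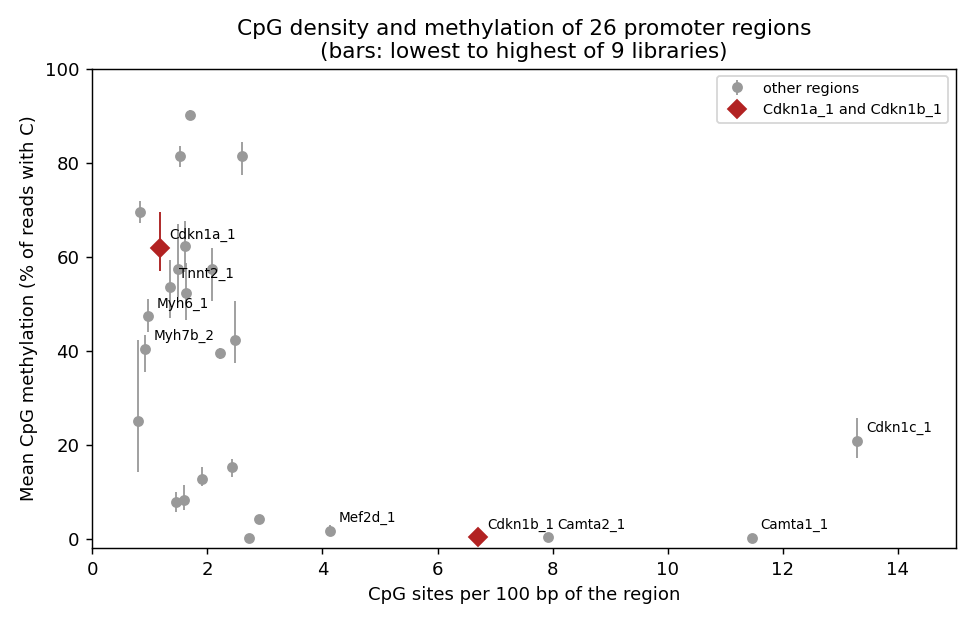
CpG sites per 100 bp (horizontal axis) against mean CpG methylation (vertical axis, percent of reads with C) of the 26 regions with reads, with bars from the lowest to the highest of 9 libraries. Cdkn1a_1 stands at low density and 61.8%, Cdkn1b_1 at high density and 0.293%, and Cdkn1c_1 at the highest density and 20.8%.

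The 5 Cdkn1a sites differed among themselves, and their order was nearly fixed across libraries. Coverage was 473 to 4813 reads (median 2192), and the widest 95% Wilson interval of a single value was ± 4.24 points. The intervals cover counting error only, since PCR copies of a molecule cannot be told from separate molecules. The site at offset 84, 421 bp before the start (17:29090558), was the highest of the 5 in 9 of 9 libraries. Its levels were 79.6%, 76.8% and 80.6% in negative siRNA, 77.6%, 76.4% and 74.4% in DNMT3a siRNA, and 77.3%, 84.1% and 85.3% in DNMT3b siRNA.

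The site at offset 124 (17:29090598, 381 bp before the start) was near the middle of the scale. It had 55.4%, 49.2% and 53.3% in negative siRNA, 57.3%, 57.4% and 50.8% in DNMT3a siRNA, and 50.1%, 59.1% and 58.2% in DNMT3b siRNA. The groups overlapped in all 3 comparisons. The site at offset 222 (17:29090696, 283 bp before the start) had 64.0%, 63.0% and 58.3% in negative siRNA, 59.8%, 57.1% and 60.0% in DNMT3a siRNA, and 60.0%, 67.9% and 63.4% in DNMT3b siRNA. Its DNMT3a values lay just below its DNMT3b values, without overlap, with means of 58.9% ± 1.63 and 63.8% ± 3.96 (SD, n = 3), and did not pass the test (edgeR adjusted p = 0.623).

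The site at offset 374 (17:29090848, 131 bp before the start) was the lowest of the 5 in 7 of 9 libraries and varied most. It had 46.6%, 36.1% and 40.3% in negative siRNA, 44.1%, 45.1% and 33.8% in DNMT3a siRNA, and 32.1%, 66.2% and 64.4% in DNMT3b siRNA. DNMT3b siRNA thus held the lowest and the highest values of all 9 libraries, 34.1 points apart, while the other sites had ranges of 8.74 to 10.9 points. Counting error at this site was at most ± 2.60 points, at 1413 to 2675 reads. Without DNMT3b replicates 2 and 3, the highest 2 libraries here, the range over the remaining 7 libraries was 14.5 points. Over the same 7 libraries the other sites had ranges of 3.84 to 8.14 points.

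The site nearest the start, at offset 393 (17:29090867, 112 bp before it), lies 19 bases from offset 374 and was higher in every library. It had 66.4%, 69.1% and 65.8% in negative siRNA, 65.9%, 68.1% and 69.5% in DNMT3a siRNA, and 65.7%, 70.5% and 74.4% in DNMT3b siRNA. DNMT3b siRNA replicates 2 and 3 were the highest 2 of the 9 libraries at 4 of the 5 sites, offset 222 being the exception. The 5 sites share an amplicon and its PCR, so they are not independent measures of a library.

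**Figure D3:**
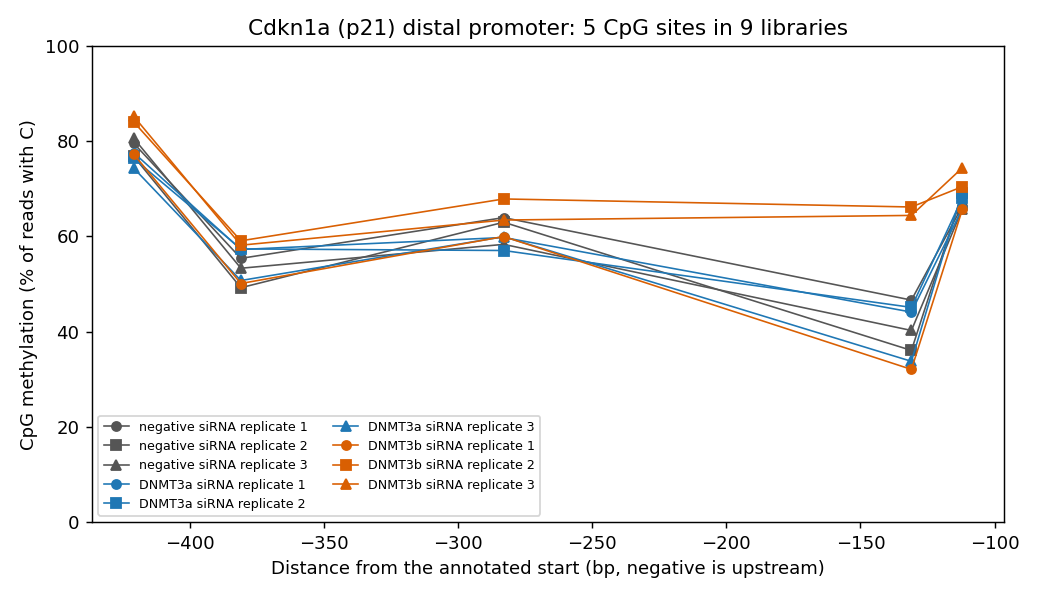
Methylation of the 5 Cdkn1a_1 CpG sites (percent of reads with C) by distance from the annotated start in bp, with a line for each of the 9 libraries coloured by siRNA. The lines run close together except 131 bp before the start, where DNMT3b replicates 2 and 3 are at 66.2% and 64.4% and DNMT3b replicate 1 is at 32.1%.

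The 23 Cdkn1b sites were all close to 0 but not alike. The 207 values (23 sites in 9 libraries) ran from 0.0167% to 2.13%, at a coverage of 1601 to 14705 reads (median 6483), and the widest 95% Wilson interval was ± 0.546 points. The median of the site means was 0.202%. The highest site was offset 141 (6:134919929, 472 bp before the start), with a mean over 9 libraries of 1.28% and a range of 0.775% to 2.13%. The lowest was offset 308 (6:134920096, 305 bp before the start), with a mean of 0.0725%. The next highest means were those of offsets 113, at 0.808%, and 277, at 0.550%. Offset 138, only 3 bases before offset 141, had a mean of 0.177%; it was chosen for mention after its values were seen.

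Reads at cytosines outside CpG show how much C remains in the same amplicon where methylation is rare, including C left by incomplete conversion. In Cdkn1b_1, 0.264% ± 0.025 of CpG reads and 0.179% ± 0.020 of reads at the 114 non-CpG cytosines carried C (SD, n = 9). The CpG level was higher by 0.0846 ± 0.0114 points, in 9 of 9 libraries (exact two-sided sign-flip p = 0.00391, the smallest possible). As an unweighted mean over cytosines the difference was 0.00527 points, positive in 5 of 9 libraries (exact sign-flip p = 0.699), and the call was lost. That mean set no minimum coverage on the non-CpG cytosines, of which 97 of 114 had at least 30 reads. As a median over cytosines with at least 30 reads the difference was 0.0456 points, positive in 9 of 9 libraries (exact sign-flip p = 0.00391), a setting added after the data were seen. The highest mean of a single non-CpG cytosine with at least 30 reads was 7.27%, above that of any CpG site of the amplicon. Without the 4 CpG sites of highest mean, the pooled difference was 0.0179 points, positive in 8 of 9 libraries (exact sign-flip p = 0.00781), also a setting added later.

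Single sites differed in their distance from the non-CpG level of 0.179%, with site means from 0.0725% to 1.28%. Of the 23 sites, 6 (offsets 113, 141, 253, 259, 265 and 277) were above the amplicon's non-CpG level in all 9 libraries, and offset 308 was below it in all 9. A mean of 0.5% or more was found at 3 of the 23 CpG sites, and at 7 of the 97 non-CpG cytosines with at least 30 reads (7.22%). The other 16 sites were above the non-CpG level in some libraries and not in others.

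**Figure D4:**
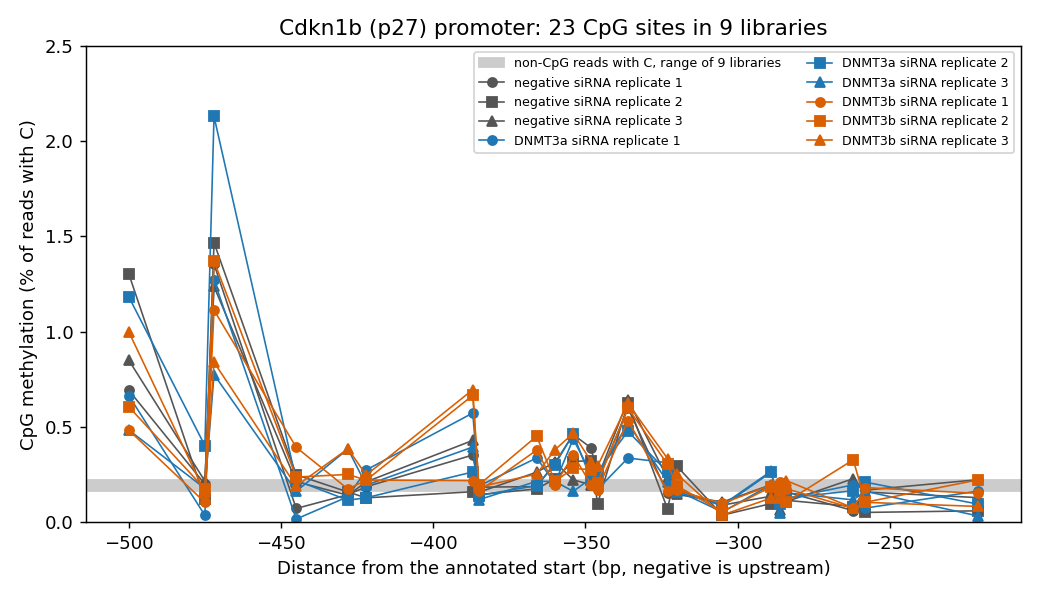
Methylation of the 23 tested Cdkn1b_1 CpG sites (percent of reads with C) by distance from the start in bp, with a line for each of the 9 libraries and a grey band for the range of the non-CpG level. Most values lie in or near the band, and the highest, 2.13%, is 472 bp before the start in DNMT3a replicate 2.

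After DNMT3a siRNA, neither promoter differed from negative siRNA beyond the spread between libraries. The Cdkn1a_1 mean was 59.8% ± 1.85 in DNMT3a siRNA and 60.3% ± 1.86 in negative siRNA (SD, n = 3), a difference of -0.498 points (exact permutation p = 0.80; log2 odds ratio -0.05 ± 0.24 SE, edgeR adjusted p = 0.940). The difference was 0.566 points without DNMT3a replicate 3 and 0.548 without negative replicate 1, so its sign rested on single libraries. In Cdkn1b_1 the means were 0.288% ± 0.0542 and 0.287% ± 0.00566 (SD, n = 3; exact permutation p = 1.0; log2 odds ratio -0.01 ± 0.11 SE, edgeR adjusted p = 0.978). Groups did not overlap in 23.1% of the 26 regions, and 0.0% passed edgeR's adjusted test. With 3 against 3 libraries the exact test cannot give a p below 0.10.

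By site, 0 of the 28 members passed edgeR's quasi-likelihood test at an adjusted p under 0.05, and 0.0% of all 310 sites did. An unadjusted p under 0.05 was found at 0 of 5 Cdkn1a sites and 2 of 23 Cdkn1b sites, against 12.6% of all sites. Groups did not overlap at those same 2 Cdkn1b sites, 1 higher and 1 lower, against 15.2% of all sites (4.52% higher and 10.6% lower). The site with the smallest p was offset 324 of Cdkn1b_1 (6:134920112), with 0.137%, 0.0979% and 0.197% in negative siRNA and 0.198%, 0.262% and 0.268% in DNMT3a siRNA. The DNMT3a values were the higher, by a log2 odds ratio of 0.75 ± 0.31 SE (edgeR adjusted p = 0.375). At offset 277 the DNMT3a values were the lower, with 0.337%, 0.477% and 0.519% against 0.599%, 0.624% and 0.643% (log2 odds ratio -0.50 ± 0.22 SE, edgeR adjusted p = 0.379).

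Means were higher in DNMT3a siRNA at 3 of 5 Cdkn1a sites and 13 of 23 Cdkn1b sites, against 39.4% of all 310 sites. The median difference was 0.0132 points over the Cdkn1a sites, 0.0196 over the Cdkn1b sites and -0.0944 over all sites. At offset 374 of Cdkn1a_1 the mean was 41.0% in either group (SD 6.27 in DNMT3a siRNA and 5.32 in negative siRNA, n = 3; edgeR adjusted p = 1.0).

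After DNMT3b siRNA the Cdkn1a promoter had a higher mean that rested on 2 of the 3 libraries. The mean was 65.2% ± 7.11 in DNMT3b siRNA and 60.3% ± 1.86 in negative siRNA (SD, n = 3), a difference of 4.93 points (exact permutation p = 0.40, adjusted over 6 tests 0.80; log2 odds ratio 0.29 ± 0.24 SE, edgeR adjusted p = 0.493). DNMT3b replicate 1, at 57.0%, was below all 3 negative libraries, and replicates 2 and 3 were above them. The difference was 9.04 points without DNMT3b replicate 1, 2.79 without replicate 2 and 2.98 without replicate 3. Without offset 374, a setting added after the data were seen, it was 2.86 points.

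All 5 Cdkn1a sites had higher means in DNMT3b siRNA than in negative siRNA, against 31.0% of all 310 sites, and their groups overlapped at all 5. The difference was 13.2 points at offset 374, with means of 54.2% ± 19.2 and 41.0% ± 5.32 (SD, n = 3; log2 odds ratio 0.80 ± 0.50 SE, edgeR adjusted p = 0.581). At the other 4 sites it was 2.01 to 3.18 points. An unadjusted p under 0.05 was found at 0 of 5 Cdkn1a sites and 1 of 23 Cdkn1b sites, offset 247, against 11.0% of all sites. No site passed the adjusted test among the members (0 of 28) or in the whole panel (0.0%).

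The Cdkn1b promoter had 0.303% ± 0.0325 in DNMT3b siRNA and 0.287% ± 0.00566 in negative siRNA (SD, n = 3; exact permutation p = 0.40; log2 odds ratio 0.14 ± 0.11 SE, edgeR adjusted p = 0.493). The level difference of 0.0165 points was 0.0352 without DNMT3b replicate 1, 0.00683 without replicate 2 and 0.00730 without replicate 3, and the log2 odds ratio ran from 0.08 to 0.24 as each library was left out. Means were higher at 16 of 23 sites, against 31.0% of all 310 sites. The median difference was 0.0253 points, against -0.242 over all 310 sites. Its site of smallest p was offset 247 (6:134920035), with 0.187%, 0.175% and 0.263% in negative siRNA and 0.379%, 0.452% and 0.253% in DNMT3b siRNA (log2 odds ratio 0.81 ± 0.31 SE, edgeR adjusted p = 0.441). The groups overlapped there. Groups did not overlap at 2 of the 23 sites, offsets 185 and 191, both higher in DNMT3b siRNA, against 20.6% of all sites (2.26% higher and 18.4% lower); these sites were chosen for mention after their values were seen. Non-CpG reads in Cdkn1b_1 carried C at 0.162%, 0.190% and 0.221% in DNMT3b siRNA and at 0.190%, 0.163% and 0.173% in negative siRNA, and their part in these small differences was not tested.

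In the direct comparison of the siRNAs, the Cdkn1a promoter had a lower mean in DNMT3a than in DNMT3b siRNA, with a difference of -5.43 points (59.8% ± 1.85 and 65.2% ± 7.11, SD, n = 3; exact permutation p = 0.40; log2 odds ratio -0.35 ± 0.24 SE, edgeR adjusted p = 0.515). The difference was -9.53 points without DNMT3b replicate 1, -3.28 without replicate 2, -3.48 without replicate 3 and -3.48 without offset 374. Means were lower in DNMT3a siRNA at 5 of 5 Cdkn1a sites, against 41.6% of all sites. The groups did not overlap at 1 of them, offset 222, against 13.5% of all sites (6.45% lower and 7.1% higher). The gap at offset 222 was within counting error. By region, 15.4% of the 26 did not overlap between these groups, and neither promoter was among them. Offset 84 had the smallest p among the Cdkn1a sites, with means of 76.1% ± 1.64 and 82.2% ± 4.29 (SD, n = 3; log2 odds ratio -0.56 ± 0.21 SE, edgeR adjusted p = 0.546). An unadjusted p under 0.05 was found at 1 of 5 Cdkn1a sites, offset 84, and 0 of 23 Cdkn1b sites, against 7.42% of all sites. The share of all sites passing after adjustment was 0.0%. This comparison and the DNMT3b comparison with negative siRNA share the DNMT3b libraries.

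The Cdkn1b promoter differed by -0.0153 points between DNMT3a and DNMT3b siRNA (exact permutation p = 0.80; log2 odds ratio -0.15 ± 0.11 SE, edgeR adjusted p = 0.515). The level difference was -0.0448 points without DNMT3a replicate 2, -0.0341 without DNMT3b replicate 1 and 0.00847 without DNMT3a replicate 3. Without DNMT3a replicate 1 it was -0.00953, and without DNMT3b replicates 2 or 3 it was -0.00564 or -0.00611. Means were lower in DNMT3a siRNA at 15 of 23 sites, against 41.6% of all sites. The median difference was -0.0275 points, against 0.0689 over all sites. These 23 sites share an amplicon and its PCR, so they are not independent measures of a library. The smallest p was at offset 277 (6:134920065), where DNMT3a siRNA had 0.337%, 0.477% and 0.519% and DNMT3b siRNA 0.534%, 0.598% and 0.624%. The DNMT3a values were the lower, without overlap, and the site did not pass the test (log2 odds ratio -0.41 ± 0.22 SE, edgeR adjusted p = 0.623). Groups did not overlap at 2 of the 23 sites, against 13.5% of all sites. The other was offset 324, where DNMT3a siRNA was the higher, with means of 0.243% ± 0.0391 and 0.169% ± 0.0367 (SD, n = 3; log2 odds ratio 0.48 ± 0.30 SE, edgeR adjusted p = 0.623).

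Whether the promoters responded differently was tested on the odds scale, as the difference within each library between the log2 ratios of methylated to unmethylated reads. The Cdkn1a response minus the Cdkn1b response was -0.04 for DNMT3a against negative siRNA (exact permutation p = 0.60), 0.15 for DNMT3b against negative siRNA (exact permutation p = 0.50) and -0.19 for DNMT3a against DNMT3b siRNA (exact permutation p = 0.40). Adjusted over the 3 comparisons, p was 0.60 in each. Leaving out each library in turn gave -0.10 to 0.04, 0.04 to 0.33 and -0.37 to -0.09. In the comparison of DNMT3b with negative siRNA it was 0.33 without DNMT3b replicate 1, 0.04 without replicate 2, 0.08 without replicate 3 and 0.23 without negative replicate 1. In the comparison of DNMT3a with DNMT3b siRNA it was -0.37, -0.09 and -0.12 without DNMT3b replicates 1, 2 and 3. No difference in response between the methylated and the unmethylated amplicon was called. With 3 libraries per group the exact test cannot give a p below 0.10, so it could not have called one. The Cdkn1b_1 ratios also lie near the non-CpG level, with C in 0.264% of CpG reads and 0.179% of non-CpG reads.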

How the data were processed

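Per the submitters' processing notes, FastQC, Bismark, Bowtie2 and mm10 were used; versions and settings are not given in the sources used here. Per the labels' protocols, bisulfite PCR products of 2 regions of each of 15 genes were pooled per DNA sample, tagmented and sequenced on a MiSeq. The deposited values, per the file headers, are a read count (coverage) for each cytosine and the percent of its reads with C and with T. Coverage times percent gave whole reads within 0.01 for 23884 of 23884 values, and these served as methylated counts. Libraries held 27193672 to 32543683 cytosine calls.

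CpG sites with at least 30 reads in all 9 libraries were tested with edgeR 4.0.16 (R 4.3.3), by the quasi-likelihood test with a coefficient per library, two-sided, with all 310 sites or 26 regions in the fit and in the Benjamini-Hochberg adjustment. A region's level is the mean over its tested sites. Exact permutation tests compared levels between groups, and exact sign-flip tests compared regions within libraries, both enumerated in Python with numpy 2.4.6. Wilson intervals were computed with scipy 1.17.1. The test was also run on simulated data, with a floor on the level above the means of many Cdkn1b_1 sites and less spread than offset 374 had. That run does not show how the test performs at those sites, and its outcome is not used here. Alternative settings were limma 3.58.1, DESeq2 1.42.0, a quasi-binomial model, a minimum coverage of 10 or of 100, a fit to the 6 libraries compared, a replicate block, pooled reads and leaving out each library. All Cdkn1a sites were named; of Cdkn1b, the sites with the highest and lowest mean and, per comparison, the smallest p; and of other regions Cdkn1c_1 and the 3 nearest each promoter in CpG density. Any other Cdkn1b site was named after its values were seen. The members and lists were chosen with earlier results of these data known.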

Additional observations from a re-analysis of the deposited data

Results flagged for a closer look

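In Cdkn1a_1, the percent of non-CpG reads carrying C stood above the control libraries in DNMT3a siRNA replicate 1, in cytosines that the comparisons do not use. It was 0.931% there (1675 of 179844 reads, 95% Wilson interval 0.888% to 0.977%), with 1.22% at CHG and 0.859% at CHH cytosines. The negative siRNA libraries had 0.653%, 0.203% and 0.212%, and the highest of them, replicate 1, had 1003 of 153692 reads (95% Wilson interval 0.614% to 0.694%). The other DNMT3a libraries had 0.345% and 0.148%, and the DNMT3b libraries 0.229%, 0.209% and 0.195%. In DNMT3a replicate 1 and negative replicate 1, Cdkn1a_1 had the highest non-CpG level of the 26 regions. In the other 7 libraries it ranked 5 to 19 from the highest, and other regions led, with 0.313% to 1.01%. Mef2c_1 had 1.01% in DNMT3a replicate 3 and Mef2d_1 had 0.654% in negative replicate 3, so levels of this size were not particular to Cdkn1a_1. The CpG means of Cdkn1a_1 in DNMT3a replicate 1 and negative replicate 1 were 60.9% and 62.4%. That of negative replicate 1 was the highest of its group. DNMT3a replicate 1 was level with DNMT3a replicate 2, which had 60.8%. With reads pooled over sites, DNMT3a replicates 1 and 2 had 60.65% and 60.66%. The part of the non-CpG reads in these CpG levels was not tested.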

How the results depend on the processing

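Of 470 values recomputed under other settings, 448 kept their direction and their side of the threshold, 21 changed sign and 1 call was lost. Part of the 448 could not change. A minimum coverage of 10 or of 100 kept the same 28 member sites, so promoter levels and response differences were identical. The replicate block leaves level differences the same by construction. Exact tests between groups cannot give a p below 0.1, so level and response differences could not cross the threshold. The lost call was the excess of CpG over non-CpG reads in Cdkn1b_1, 0.00527 points as a mean over cytosines, without a minimum coverage on the non-CpG cytosines. No member site was called under any setting. With pooled reads the Cdkn1b_1 difference of DNMT3a from negative siRNA was -0.00136 points. At offset 374 of Cdkn1a_1 the log2 odds ratio of DNMT3a against negative siRNA was 0.019 in the quasi-binomial model and 5e-05 with the replicate block. The cause of these changes was not tested. Leaving out each library in turn, the level difference of DNMT3a from negative siRNA ran from -1.23 to 0.566 points in Cdkn1a_1 and from -0.0283 to 0.0249 in Cdkn1b_1, and that of DNMT3a from DNMT3b siRNA in Cdkn1b_1 from -0.0448 to 0.00847. For DNMT3a against negative siRNA, the response difference ran from -0.096 to 0.036, and log2 odds ratios from -0.14 to 0.048 (Cdkn1a_1), -0.084 to 0.057 (Cdkn1b_1), -0.15 to 0.22 (offset 374) and -0.0041 to 0.12 (offset 393). Offset 222 ran from -0.0014 to 0.25 for DNMT3b against negative siRNA, and offset 124 from -0.20 to 0.087 for DNMT3a against DNMT3b siRNA. Deviations of same-numbered libraries correlated at -0.152 to 0.158 over sites, so the numbers were not taken as pairs. The replicate block changed no call; the Cdkn1a_1 difference of DNMT3b from negative siRNA had an exact sign-flip p of 0.50 with it. With 3 libraries per group, the spread between libraries limits what can be called, and in Cdkn1b_1 the non-CpG level limits it further.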

Other observations

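The listings of Cdkn1b_2 and Cdkn1c_2, neither of which had reads, are identical: the same 104 cytosines at the same offsets and in the same contexts, of which 12 are CpG. Neither Cdkn1a_2 nor Cdkn1b_2 matched a RefSeq promoter window of its gene, so their positions are not given here.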
